A study of Mus musculus with 6 samples.

Results

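Surface proteins that are used to gate mouse hematopoietic stem cells and multipotent progenitors are described here through their transcripts. The genes are Slamf1 (the antigen CD150), Cd48, Kit (CD117), Flt3 (CD135), Cd34 and Procr (the endothelial protein C receptor, EPCR). All probe sets annotated to exactly 1 of these symbols were taken, which gave 6 probe sets, 1 per gene, of 14610 tested. They are 6 of the 10366 genes that have a probe set of their own. Each gene therefore rests on a single probe set, with no other probe set to set beside it.

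Expression was measured in LKS-Slam cells, which are bone marrow cells negative for lineage markers, positive for Kit and Sca-1 and sorted further on SLAM surface markers. The group labelled Zeb2-KO had 3 arrays from mice of genotype Zeb2Δ/ΔMx1-Cre, which carried floxed Zeb2 alleles and the Cre recombinase under the interferon-inducible Mx1 promoter. The control group had 3 arrays from C57Bl/6 WT mice. All mice received polyinosinic-polycytidylic acid (pIC), an inducer of interferon, at 6 weeks of age, and marrow was taken 8 weeks later, at 14 weeks. The Mx1 promoter responds in many interferon-sensitive cells, so deletion is not limited to stem cells. The labels give no Cre for the WT mice and no background strain for the Zeb2-KO mice, and they do not say whether a sample came from 1 mouse. They also do not name the SLAM antibodies of the sort.

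In the usual scheme, stem cells carry Slamf1 and lack Cd48, and multipotent progenitors that leave the stem cell state gain Cd48. Flt3 and Cd34 are low or absent on long-term mouse stem cells and appear on multipotent progenitors, while Procr marks the most primitive cells. Kit is the receptor for stem cell factor and is carried by stem cells and early progenitors alike. The sort selected on protein, and the arrays report RNA left after that selection. In sorted bulk samples, fewer cells of a type and less RNA per cell cannot be told apart.

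Slamf1 and Cd48 are neighbours in the cluster of SLAM receptor genes on chromosome 1, and their sequences just before the start of transcription are shown because these 2 of the 6 genes had the largest differences between the groups. The stretches, from RefSeq on GRCm38.p6, are plus strand, 240 bases each, and end before the start site. Capitals mark matches to any of 4 short motifs searched on both strands, namely CACCTG (the E-box bound by ZEB proteins), TGTGGT (RUNX factors), and AGATAA with its variant TGATAA (both bound by GATA factors).
Cd48, chr1:171681742-171681981: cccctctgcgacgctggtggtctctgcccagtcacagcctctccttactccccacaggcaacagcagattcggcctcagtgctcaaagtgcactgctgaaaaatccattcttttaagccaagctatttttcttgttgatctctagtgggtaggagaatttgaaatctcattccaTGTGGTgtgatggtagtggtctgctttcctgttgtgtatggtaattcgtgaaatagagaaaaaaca
Slamf1, chr1:171766882-171767121: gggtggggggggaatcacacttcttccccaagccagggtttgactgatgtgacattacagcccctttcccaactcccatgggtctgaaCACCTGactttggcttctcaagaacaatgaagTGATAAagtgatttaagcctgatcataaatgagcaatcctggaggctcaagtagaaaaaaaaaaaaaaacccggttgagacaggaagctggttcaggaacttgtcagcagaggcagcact
In the Slamf1 stretch CACCTG begins at base 89 and TGATAA at base 121, and in the Cd48 stretch TGTGGT begins at base 175. All 6 genes had an entry in the promoter table, with 7 windows of 300 bases, 2 of them for Kit. CACCTG was in 1 of these 7 windows, that of Slamf1, against 20.2% of all 32851 windows. TGTGGT was in that of Cd48 alone, against 16.8%, TGATAA in that of Slamf1 alone, against 9.05%, and AGATAA in none, against 11.2%. The motifs do not overlap each other where they match, and a match describes letters and not a bound site.

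Of the whole series, 4 facts touch these genes. Zeb2 itself was higher in the arrays labelled Zeb2-KO (log2 difference 1.48, SE 0.40, limma adjusted p = 0.581), so "Zeb2-KO arrays" below means the arrays that carry this label, and directions rest on the labels alone. The part of Zeb2 that its probe set reads, relative to the deleted part, is not given in the sources used here. WT replicate 1 correlated least with the other arrays, at a mean of 0.841 against 0.886 to 0.908. Zeb2-KO replicate 1 and WT replicate 1 stood apart in Y-linked signal, with a mean log2 of 6.17 and 5.13 over 3 Y-linked genes against 3.83 to 4.03 in the other 4 arrays, and the labels give no sex. The X-linked gene Xist was lowest in the same 2 arrays, at 8.15 and 9.70 against 10.70 to 11.09 in the others. The sex of the samples was not tested. The interquartile range of log2 values ran from 1.83 to 2.40 in the Zeb2-KO arrays and from 1.59 to 2.03 in WT.

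Of the gate's positive markers, Kit was bright in every array and Slamf1 in all but WT replicate 1. The Kit probe set lay between percentiles 93.8 and 97 of all probe sets on each array, although brightness also depends on the probes. Slamf1 reached percentile 89.4 at its highest and 22.7 at its lowest, the latter in WT replicate 1. The Sca-1 gene Ly6a was not analysed here. Of 6 measured lineage markers, used to exclude mature cells, Cd3e, Cd3g, Cd8b1, Klrb1c and Fcer1a had group means of at most 6.67 on the log2 scale, close to the median of all probe sets (6.63) or below it. Cd2 was brighter, at 7.28 in the Zeb2-KO arrays and 8.30 in WT, and so was the B cell gene Cd79b, at 7.96 and 8.80. Cd79b was the brightest of 11 measured B cell genes, whose lowest means were 5.95 in the Zeb2-KO arrays and 6.54 in WT.

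None of the 6 genes passed the test over all probe sets (limma with Benjamini-Hochberg adjustment, threshold 0.05), where 2 of 14610, or 0.0137%, did. Slamf1, Kit and Flt3 lay higher in the Zeb2-KO arrays and Cd48, Cd34 and Procr lay lower, while 44.6% of all probe sets lay higher and 55.4% lower. The median difference was -0.089 over all probe sets, but 0.18 over those at or above the median brightness, so bright probe sets lay higher more often. The 3 values of one group did not overlap the 3 of the other for Slamf1 and Kit (higher) and for Cd48 and Procr (lower), 4 genes of 6. With quantile normalization the genes without overlap were Slamf1, Cd48 and Cd34, and with median centring they were Slamf1, Kit and Cd48. Over all probe sets 13.2% did not overlap, 6.9% higher and 6.26% lower. At an unadjusted p under 0.05 lay Slamf1 (higher) and Cd48 (lower), against 7.02% of all probe sets, 5.69% higher and 1.33% lower. Which genes lay there depended on the setting. The unadjusted limma p of Slamf1 was 0.0875 with quantile normalization and 0.139 without WT replicate 1. That of Cd48 was 0.107 without Zeb2-KO replicate 3, and that of Cd34 was 0.0419 with quantile normalization. All 6 genes were chosen with these results known, so the counts describe them and carry no test.

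**Figure D1:**
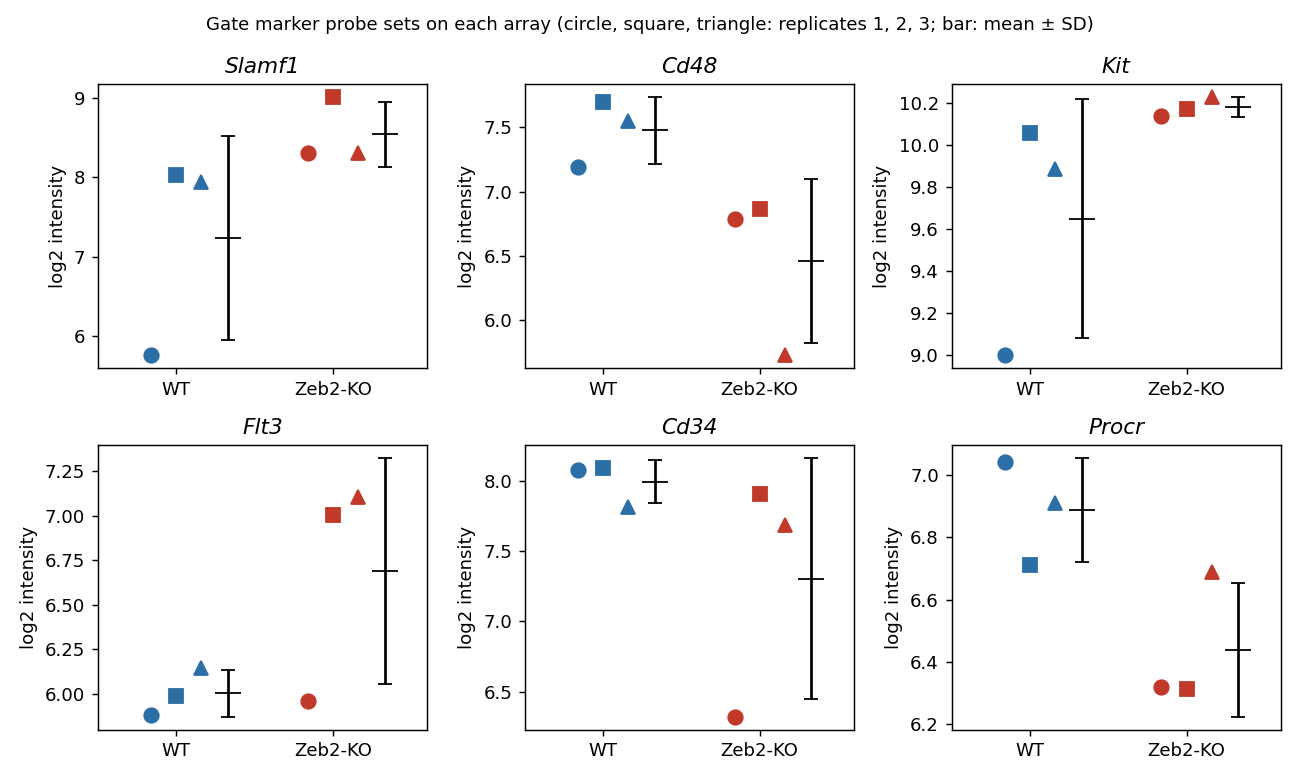
Log2 intensity of the 6 probe sets on each array (y axis, 1 panel per gene, each with its own scale that does not start at 0), WT in blue and Zeb2-KO in red, with symbols for replicates 1 to 3 and bars for mean ± SD of 3 arrays. Groups do not overlap for Slamf1, Cd48, Kit and Procr, WT replicate 1 is far below the other arrays for Slamf1 and Kit, and Zeb2-KO replicate 1 is far below for Cd34.

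Slamf1 encodes CD150, a self-binding receptor of the SLAM family and the positive marker of the SLAM gate. Its log2 intensities, in the order of replicates 1 to 3 as everywhere below, were 8.31, 9.01 and 8.30 in the Zeb2-KO arrays and 5.76, 8.02 and 7.94 in WT. All 3 Zeb2-KO arrays lay above all WT arrays, with the nearest values 8.30 and 8.02, and WT replicate 1 lay more than 2 log2 units below the other WT arrays. The mean was 8.54 ± 0.41 against 7.24 ± 1.28 (SD, n = 3), a difference of 1.30 (SE 0.54, 95% interval 0.11 to 2.49, 2.46-fold, limma adjusted p = 0.673). Its residual spread, 0.95, was larger than that of 94.8% of probe sets. Without WT replicate 1 the difference was 0.56, with array weights it was 0.74, and it was 0.46 with each array's interquartile range entered as a covariate.

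Cd48 encodes a lipid-anchored SLAM family protein, a ligand of the receptors CD2 and CD244, and its absence defines the stem cell side of the gate. It stood at 6.79, 6.86 and 5.72 in the Zeb2-KO arrays and at 7.19, 7.70 and 7.55 in WT. Every Zeb2-KO array lay below every WT array, and Zeb2-KO replicate 3 was lowest by more than 1 log2 unit. The mean was 6.46 ± 0.64 against 7.48 ± 0.26 (SD, n = 3), a difference of -1.02 (SE 0.36, 95% interval -1.81 to -0.24, limma adjusted p = 0.656), or 2.03-fold lower. Without Zeb2-KO replicate 3 it was -0.65, and without both arrays of raised Y-linked signal it was -1.33. Array weights gave -1.67 and a limma adjusted p of 0.0197, in a fit that called 978 probe sets. Slamf1 and Cd48 were the 2 members whose groups were apart with all arrays on deposited, quantile-normalized and median-centred values alike. Groups that are apart with all arrays cannot overlap when arrays are left out, so leaving arrays out could not test this. The share of all probe sets without overlap was 13.2%, 12.4% and 13.5% on these 3 scales.

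Set within each array, the log2 ratio of Slamf1 to Cd48, counted from its WT mean, was 1.76, 2.39 and 2.82 in the Zeb2-KO arrays. It was -1.19, 0.56 and 0.63 in WT. The Zeb2-KO arrays thus lay at 2.32 ± 0.53 and the WT arrays at 0 ± 1.03 (SD, n = 3). The groups could not overlap here, since Slamf1 was higher and Cd48 lower in every Zeb2-KO array than in every WT array. The nearest pair of arrays was Zeb2-KO replicate 1 and WT replicate 3, both measured on the same scale. This ratio combines 2 members that were chosen with their directions known and is given as a description.

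**Figure D2:**
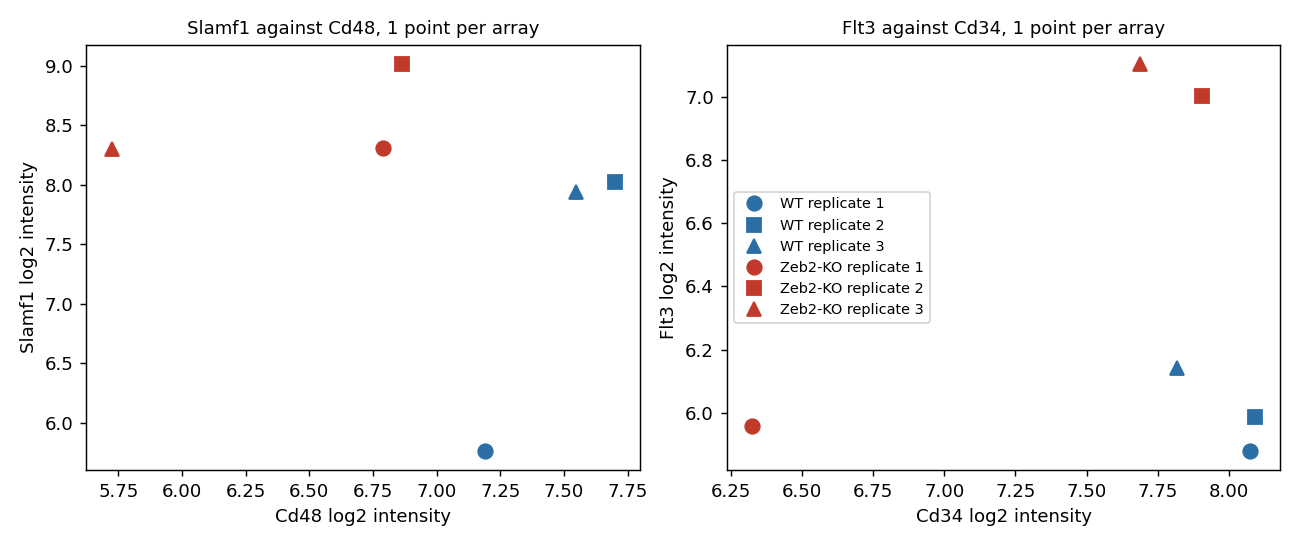
Left, Slamf1 (y) against Cd48 (x), and right, Flt3 (y) against Cd34 (x), as log2 intensity with 1 point per array, WT in blue and Zeb2-KO in red. On the left the Zeb2-KO arrays lie up and to the left of the WT arrays, and on the right Zeb2-KO replicates 2 and 3 lie above the WT arrays in Flt3 while replicate 1 lies to the left in Cd34.

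Kit encodes the receptor tyrosine kinase for stem cell factor and is one of the proteins on which the cells were sorted. Its values were 10.14, 10.17 and 10.23 in the Zeb2-KO arrays, a spread of 0.047 (SD), and 8.998, 10.06 and 9.89 in WT. The groups did not overlap, with 10.14 in Zeb2-KO replicate 1 and 10.06 in WT replicate 2 the nearest values. The mean was 10.18 ± 0.05 against 9.65 ± 0.57 (SD, n = 3), a difference of 0.53 (SE 0.33, 95% interval -0.19 to 1.26, limma adjusted p = 0.673). Most of this lay in WT replicate 1, and without it the difference was 0.21. With the interquartile range as a covariate it was 0.24. With quantile normalization it was 0.34 and the groups overlapped.

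Flt3 encodes the receptor for FLT3 ligand, a kinase of the same class as Kit that marks multipotent and lymphoid-primed progenitors. It stood at 5.96, 7.00 and 7.10 in the Zeb2-KO arrays and at 5.88, 5.99 and 6.14 in WT. Zeb2-KO replicates 2 and 3 lay above all WT arrays, whereas replicate 1 lay among them, so the groups overlapped. The mean was 6.69 ± 0.63 against 6.00 ± 0.13 (SD, n = 3), a difference of 0.69 (SE 0.35, 95% interval -0.08 to 1.45, 1.61-fold, limma adjusted p = 0.673). Without Zeb2-KO replicate 1 the difference was 1.05 (limma adjusted p = 0.381), and array weights gave 0.98 (limma adjusted p = 0.039). With the interquartile range as a covariate it was 0.30.

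Cd34 encodes a sialomucin of progenitor and endothelial cells that long-term stem cells of adult mice carry little of. It stood at 6.32, 7.90 and 7.69 in the Zeb2-KO arrays and at 8.07, 8.09 and 7.82 in WT. Zeb2-KO replicate 1 lay far below every other array, replicate 3 lay just below the lowest WT array, and replicate 2 lay within the WT range. The mean was 7.30 ± 0.86 against 7.99 ± 0.15 (SD, n = 3), a difference of -0.69 (SE 0.40, 95% interval -1.57 to 0.20, limma adjusted p = 0.673). Without Zeb2-KO replicate 1 the difference was -0.20, and without both arrays of raised Y-linked signal it was -0.16. With the interquartile range as a covariate it was -1.25, and with array weights -0.26. With quantile normalization it was -0.94, and there the groups did not overlap.

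Procr encodes a receptor that binds protein C and activated protein C, an anticoagulant protease, on stem and endothelial cells. Its values were 6.32, 6.31 and 6.69 in the Zeb2-KO arrays and 7.04, 6.71 and 6.91 in WT. The groups did not overlap, but only a gap of about 0.02 parted Zeb2-KO replicate 3 from WT replicate 2, and they overlapped after quantile normalization or median centring. The mean was 6.44 ± 0.21 against 6.89 ± 0.17 (SD, n = 3), a difference of -0.45 (SE 0.28, 95% interval -1.06 to 0.17, limma adjusted p = 0.673). It was the quietest of the 6 genes, with a residual spread of 0.19 that was at or above that of only 4.96% of probe sets. It was -0.25 with array weights.

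The 6 genes did not vary as 1 block over the arrays. The deviations of WT replicate 1 were -2.13 for Slamf1 and -0.92 for Kit from their means over the 6 arrays, with 0.42 for Cd34 and 0.38 for Procr. In Zeb2-KO replicate 1, Cd34 lay at -1.32 and Flt3 at -0.39 from their means, and Slamf1 at 0.42. Zeb2-KO replicate 2 had the highest Slamf1 of all arrays, and Zeb2-KO replicate 3 the lowest Cd48 and the highest Flt3 and Kit. WT replicate 1, far lowest for Slamf1 and Kit, and Zeb2-KO replicate 1, far lowest for Cd34, are the arrays with raised Y-linked signal, and the part of that signal in these values was not tested.

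**Figure D3:**
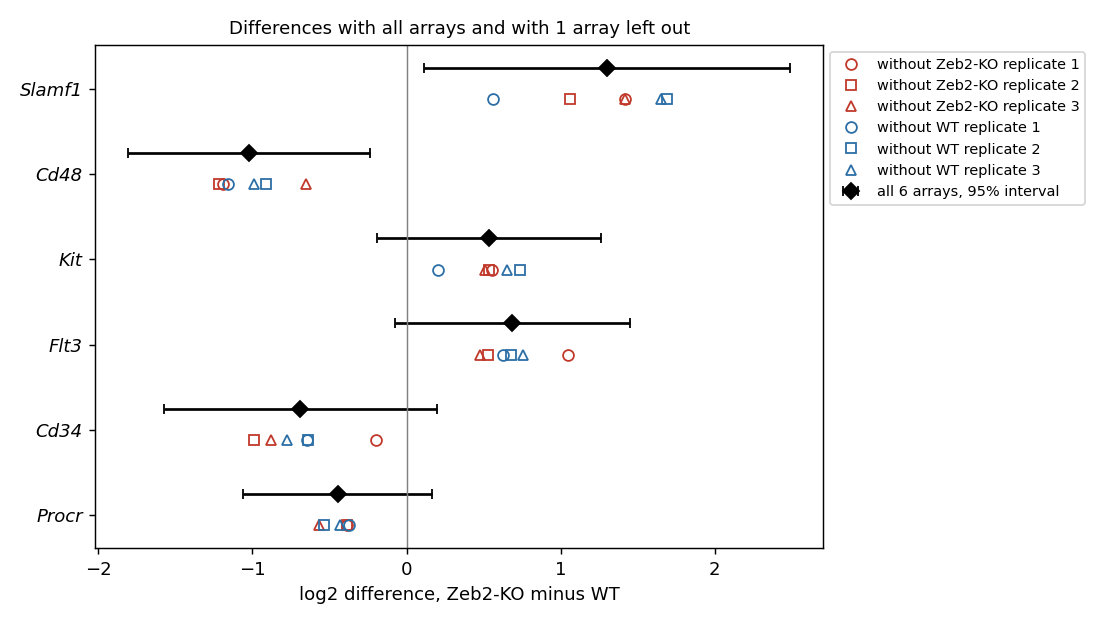
Log2 difference, Zeb2-KO minus WT (x), for each of the 6 genes (y), with all arrays (black diamonds, 95% interval from limma) and with 1 array left out (open symbols). No difference changed its sign when 1 array was left out. For Slamf1, Kit, Cd48 and Procr it could not, since their groups do not overlap. Slamf1 and Kit were nearest 0 without WT replicate 1 and Cd34 without Zeb2-KO replicate 1.

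Beside Slamf1, the measured SLAM family genes lay lower, which changed with the array spread as described next. Of 12 genes of the family and its adaptors, 8 were measured, and Slamf1 was the 1 that lay higher while 7 lay lower, with a median of -0.39 against -0.089 over all probe sets. With the interquartile range as a covariate, 4 lay higher and 4 lower, and with array weights 3 lay higher. Without WT replicate 1 the median was -0.20. None passed the test. Slamf6, a self-binding receptor of lymphocytes that is coded on the same chromosome, lay at -0.80 (SE 0.57), with 7.72, 5.22 and 7.15 in the WT arrays and 6.09, 5.22 and 6.38 in the Zeb2-KO arrays. Slamf9 lay at -0.42 (SE 0.29), Cd244a, the receptor that binds Cd48, at -0.41 (SE 0.30), and Cd84, next to Slamf1 in the order of SLAM genes, at -0.11 (SE 0.32).

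**Figure D4:**
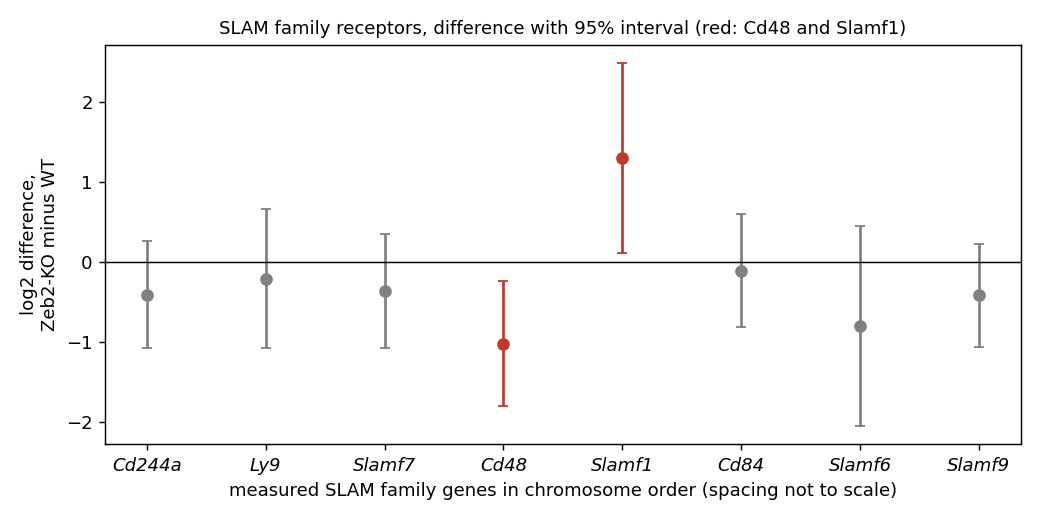
Log2 difference, Zeb2-KO minus WT (y), with 95% intervals from limma, for the 8 measured SLAM family receptors in chromosome order (x, spacing not to scale). Slamf1 is the only one above 0 (with array weights 3 of the 8 were), and the intervals of the 6 genes drawn in grey include 0.

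Of 36 ligands and signalling genes of the Kit and Flt3 receptors, 12 were measured, 9 higher and 3 lower, with a median of 0.29, and none passed. The median was -0.15 with the interquartile range as a covariate (4 of 12 higher), 0.18 with quantile normalization (8 of 12), 0.09 without WT replicate 1 (7 of 12), 0.18 without WT replicate 3 and 0.59 without Zeb2-KO replicate 1. Without dim probe sets, 8 of 10 lay higher, with a median of 0.39 against 0.18 over all probe sets kept. The ligand genes Kitl and Flt3l were not analysed here. The inhibitor of Ras signalling Spred1 lay at 0.99 (SE 0.35, limma adjusted p = 0.656), and Ptpn6, the phosphatase SHP-1 that dampens Kit signalling, lay at -0.65 (SE 0.27, limma adjusted p = 0.673). Ptpn6 stood at 8.87, 8.74 and 8.87 in the Zeb2-KO arrays and at 9.68, 9.51 and 9.25 in WT, without overlap. Pik3ca, a catalytic subunit of PI3 kinase, lay at 0.57 without overlap, and Sos1, an exchange factor for Ras, at 0.66 with overlap.

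Around Procr, 6 of 13 genes of the protein C pathway were measured, 3 higher and 3 lower, and none passed. S1pr1, the sphingosine 1-phosphate receptor, stood at 7.59, 6.92 and 7.00 in the Zeb2-KO arrays and at 8.08, 7.65 and 8.09 in WT, a difference of -0.77 (SE 0.30, limma adjusted p = 0.662) without overlap. The thrombin receptors F2rl2 and F2r lay at 0.89 and 0.60, and Thbd, thrombomodulin, at -0.25 (SE 0.29). The gene of protein C itself, Proc, was not analysed here. Around Cd34, 6 of 11 sialomucin, selectin and partner genes were measured, and Cd34 was the 1 that lay lower. Podxl, podocalyxin, a sialomucin of the same family, stood at 7.19, 7.45 and 6.79 in the Zeb2-KO arrays and at 6.36, 5.73 and 6.61 in WT, without overlap (difference 0.91, SE 0.33, limma adjusted p = 0.656). Emcn, endomucin, lay at 0.48 and Prkca, a protein kinase C, at 0.49, both with overlap. The median of these 6 genes was 0.33, and it was -0.21 with the interquartile range as a covariate, with 2 of 6 higher. Quantile normalization left 3 of 6 higher, and with 1 array left out the median ran from 0.12 to 0.57. Without dim probe sets, 3 of 4 lay higher, with a median of 0.15 against 0.18 over all probe sets kept.

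Most genes of a list of other stem cell genes lay higher, as Slamf1 did. Itgb3 and Itga2b in it are also counted in the megakaryocyte and platelet list below. The list is mostly of surface genes, but Ctnnal1, at 1.19, and Sult1a1, at -0.18, code for proteins inside the cell and are counted in it. Of 25, 14 were measured, 11 higher and 3 lower, with a median of 0.42 (0.22 with quantile normalization, 0.29 with the interquartile range as a covariate, 0.66 without WT replicate 2, 0.65 with array weights), and none passed (with array weights Itga6, Itgb3 and Abcg2 did). Without dim probe sets, 11 of 13 lay higher, with a median of 0.44 against 0.18 over all probe sets kept. The integrin subunit Itga6 lay at 1.10 (SE 0.39), the tetraspanin Cd9 at 1.02 (SE 0.37), the adhesion receptor Adgrg1 at 0.90 (SE 0.33) and the integrin subunit Itgb3 at 0.75 (SE 0.33), all without overlap and with limma adjusted p from 0.656 to 0.673. Adgrg1 stood at 10.08, 9.99 and 9.70 in the Zeb2-KO arrays and at 8.59, 9.61 and 8.87 in WT. Cd27, a receptor of the TNF family on stem cells and progenitors, lay at 0.02 (SE 0.50), with WT replicate 1 lowest at 7.27 and WT replicate 3 highest at 9.46.

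Most genes of lymphoid and multipotent progenitors lay lower, unlike Flt3. Of 17, 9 were measured, 1 higher and 8 lower, with a median of -0.40 (-0.53 with quantile normalization, -0.20 with the interquartile range as a covariate and -0.62 without Zeb2-KO replicate 1), and none passed. Satb1, a chromatin organizer of early lymphoid cells, stood at 7.10, 6.61 and 6.79 in the Zeb2-KO arrays and at 7.35, 7.36 and 7.31 in WT, a difference of -0.51 (SE 0.28) without overlap. Cd52, a lipid-anchored lymphocyte antigen, lay at -1.01 (SE 0.50), Ly6d, a marker of lymphoid progenitors committed to the B lineage, at -0.58 (SE 0.37) and Cnr2, a cannabinoid receptor, at -0.40 (SE 0.30). These 3 overlapped between the groups.

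Markers of other cell types also differed between the arrays, and their part in the values above was not tested. The 11 measured B cell genes of 13 had a mean log2 of 8.05 in WT replicate 1, where Slamf1 and Kit were lowest, and of 7.00 to 7.74 in the other WT arrays. The mean was 6.28 to 7.09 in the Zeb2-KO arrays, and lowest in Zeb2-KO replicate 2, where Slamf1 was highest. All 11 lay lower, with a median of -0.82 (-0.44 without Zeb2-KO replicate 2, and -0.15 with the interquartile range as a covariate, with 2 of 11 higher). The most different was Ms4a1, the antigen CD20, at 5.95 ± 0.85 against 8.01 ± 0.61 (SD, n = 3, limma adjusted p = 0.414). Cd22, a B cell inhibitory receptor, lay at -0.91, Cd79b, a chain of the B cell receptor complex, at -0.84 and Cr2, a complement receptor, at -0.82. Slamf1 stood at 8.02 and 7.94 in WT replicates 2 and 3, whose B cell means were 7.00 and 7.74. Cd48, which most mature blood cells carry, B cells among them, was highest in WT replicate 2, where the B cell mean was the lowest of the WT arrays. It was lowest in Zeb2-KO replicate 3, where the B cell mean was 6.96 against 6.28 in Zeb2-KO replicate 2. With 3 arrays per group, these orders for Slamf1 and Cd48 cannot show whether B cells have a part, which was not tested.

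The 7 measured megakaryocyte and platelet genes of 14 had means of 8.25 to 8.99 in the Zeb2-KO arrays and 7.04 to 7.60 in WT, with 6 of 7 higher and a median of 0.75 (0.38 with array weights). Ppbp lay at 3.28, Pf4 at 2.21, Gp5 at 1.03 and Itgb3 at 0.75, and none passed with all arrays weighted equally. Ppbp passed without Zeb2-KO replicate 1 (4.26, limma adjusted p = 0.00806), Pf4 without WT replicate 1 (2.83, limma adjusted p = 0.03), and Ppbp, Pf4 and Itgb3 with array weights. Slamf1, Itga2b, Itgb3, Cd9 and Vwf are also known from stem cells biased to platelets. The 6 measured erythroid genes of 13 had means of 7.23 to 7.89 against 6.56 to 6.71, all 6 higher, with a median of 0.96 (0.56 with the interquartile range as a covariate). Car2 lay at 1.72, the Rh-associated gene Rhag at 1.52, Tfrc at 0.96 and Klf1 at 0.45, and none passed (with array weights Car1, Car2 and Tfrc did).

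Of the remaining lists, 7 of 14 T and NK cell genes were measured, 5 lower (2 lower with the interquartile range as a covariate), with means of 5.54 to 5.96 in the Zeb2-KO arrays and 5.57 to 6.18 in WT. Nkg7 lay at 1.12, Cd2 at -1.02, Cd8b1 at -0.31 and Cd3e at -0.28. Of 16 myeloid genes 7 were measured, 5 higher, with a median of 0.25 (0.061 without WT replicate 1 and 0.066 without Zeb2-KO replicate 3), and their means of 6.21 to 6.78 and 6.02 to 6.32 overlapped. Mpo lay at 0.88, S100a9 at 1.42, Lyz2 at 0.40 and Ctsg at 0.25. S100a8, whose protein pairs with that of S100a9, lay at -0.15 and Elane at -0.16. S100a9 was far highest in Zeb2-KO replicate 1, at 10.16, while S100a8 stood at 4.57 there and Mpo, at 6.83, was lowest of the Zeb2-KO arrays. All 6 measured endothelial and stromal genes of 12 lay lower, with a median of -0.35 (-0.52 without Zeb2-KO replicate 1 and -0.19 with the interquartile range as a covariate), and their means of 6.36 to 6.67 lay below those of 6.76 to 7.26 in WT. Sparc lay at -0.99, Dcn at -0.60, Col1a1 at -0.35 and Col1a2 at -0.34. Procr and Cd34, which also lay lower, are known from endothelial cells as well. So are Podxl (0.91), Emcn (0.48) and Vwf (0.58), which lay higher, and a part of endothelial cells in these values was not tested. Of 15 lineage gate markers 6 were measured, 2 higher and 4 lower (4 higher with the interquartile range as a covariate), with Cd2 at -1.02 and Fcer1a at 1.07, and Fcer1a reached 7.50 in Zeb2-KO replicate 2 alone. Of 8 mast cell and basophil genes 3 were measured, with Mcpt8 at -0.31 and Hdc at -0.07 beside Fcer1a. No gene of any of the lists passed the test with all arrays in the fit and weighted equally. With array weights, which called 978 of all probe sets, 17 genes of the lists passed. Beside Cd48 and the stem cell, megakaryocyte and erythroid genes given above, these were Spred1 and Mpo, higher, and S1pr1, Cd79b, Ms4a1, Cd22, Dcn and Sparc, lower.

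**Figure D5:**
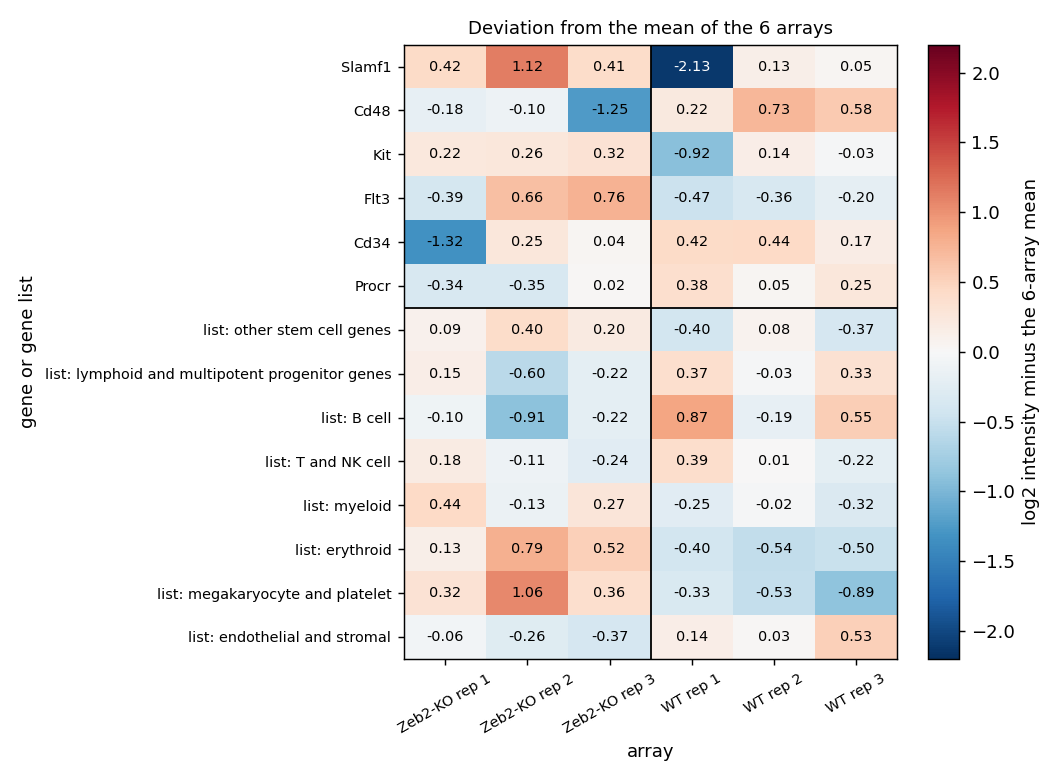
Deviation of each array (x) from the mean of the 6 arrays, in log2 units, for the 6 gate genes and for the mean of each of 8 gene lists (y). Red is above and blue below the mean, and WT replicate 1 is lowest for Slamf1 (-2.13) and highest for the B cell list (0.87).

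The genes whose values over the 6 arrays were most like those of each member were found by the root mean square difference of mean-centred log2 values, over 5790 or 5791 probe sets with 1 symbol and at or above the median brightness. For Slamf1 these were Prdx1, a peroxiredoxin (0.135), and Ruvbl1, a DNA helicase subunit (0.189), against a spread of Slamf1 about its own mean of 1.01. Prdx1 had its own lowest value, 5.34, in WT replicate 1. For Cd48 the closest were Scarb1, a lipoprotein receptor (0.277), and Ubl3 (0.328), against a spread of 0.647, a looser likeness than for Slamf1. For Kit they were Tob1, an inhibitor of proliferation (0.0864), and N4bp2 (0.0901), for Flt3 Rpp30, a subunit of ribonuclease P (0.0795), and Isoc1 (0.0903), for Cd34 Vamp3, a vesicle fusion protein (0.171), and Ssu72, a phosphatase of RNA polymerase II (0.181), and for Procr Gm4983 (0.0291) and Fbxl12 (0.0944). None of these 12 genes is a gate marker or belongs to a list above.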

How the data were processed

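Per the labels' protocols, RNA of the sorted cells was amplified, and biotin-labelled product was hybridised to Affymetrix mouse gene arrays, 1 per marrow sample. The deposited intensity values, 1 per probe set and array, were made by the authors with RMA, per the submitters' processing notes. Its version and any scaling after it are unknown here. The range of the values shows a linear scale, and they were converted to log2. Arrays carry no read depth, and their number limits the precision.

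Of 20220 probe sets, 5610 with identifiers below the first annotated one, with no gene in the platform annotation, were left out. Of the 14610 tested, 11229 carry 1 symbol, 766 several and 2615 none, and 11184 of the first were matched by gene identifier to RefSeq (GRCm38.p6). The difference Zeb2-KO minus WT was estimated in R 4.3.3 by limma 3.58.1 (lmFit, eBayes, 4 residual and 6.87 prior degrees of freedom), adjusted by Benjamini-Hochberg over all 14610. Groups follow the titles. Lists used 1 probe set per gene, that of highest mean, and they share genes. Cd2, Cd8b1, Cd3e, Cd3g and Klrb1c are counted both as T and NK cell genes and as lineage gate markers. Fcer1a is both a lineage gate marker and a mast cell and basophil gene. Slamf1, Cd48, Procr and Cd34 are counted in the lists set beside them. Named genes are the members, Zeb2, Thbd, up to 4 genes of smallest p per list, and the 2 most alike genes per member. Car1 and Abcg2 are named for passing with array weights. Others (Xist, Cd84, Cd27, Cd244a, Vwf, Itga2b, Cd3g, Klrb1c, Ctnnal1, Sult1a1, S100a8 and Elane) were chosen after their values were seen. The members and lists were chosen with earlier results of these data known. The fit was tested on 5 simulated sets with 200 changed probe sets each and the residual spreads of these data. Of log2 differences of 1, 7.6% passed the threshold, and of differences of 2, 71.2% did. A change of the smaller size would thus mostly be missed. Samples with the same replicate number were correlated in their deviations from the group means at 0.36, 0.414 and 0.0468. Samples with different numbers were correlated at -0.375 to 0.0301, all lower, though 0.0301 is close to 0.0468. Deviations sum to 0 within a group, so these correlations are tied to each other and their order is partly built in. The titles give a number but state no pairing, so the main fit used none, and a block for the number is among the settings below.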

Additional observations from a re-analysis of the deposited data

How the results depend on the processing

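Across 16 alternative settings (15 for Flt3, which the filter on dim probe sets removed), none of the 6 differences changed sign. In many of them it could not change. The filter on dim probe sets, other priors in limma, the replicate block and the inclusion of control probe sets leave each estimate as it was. Leaving arrays out cannot reverse a gene whose groups do not overlap, as for Slamf1, Kit, Cd48 and Procr. Slamf1 ran from 0.46 to 1.69, Cd48 from -1.67 to -0.65, Kit from 0.21 to 0.74, Flt3 from 0.30 to 1.05, Cd34 from -1.25 to -0.16 and Procr from -0.57 to -0.25. Cd48 (-1.67, limma adjusted p = 0.0197) and Flt3 (0.98, limma adjusted p = 0.039) passed with array weights, and no member passed in another setting. The 2 probe sets past the threshold became 978 with array weights, 1 without dim probe sets, 1 with the interquartile range as a covariate, and 0 (limma) with a block for the replicate number, where 2595 lay at an unadjusted p under 0.05 against 1025 without it. No member passed without the replicate block and no probe set passed with it, so no member's call could change. With the block the unadjusted limma p of Flt3 went from 0.0736 to 0.0473, and that of Cd48 from 0.0155 to 0.029. By their titles the samples share only a number, though their deviations were correlated most within a number, an order that is partly built in. With 1 array left out 2 to 18 probe sets passed. Leaving out both arrays with raised Y-linked signal, chosen after seeing the data, gave 1 probe set, with Slamf1 at 0.68, Kit at 0.23 and Flt3 at 0.99. The cause of these changes was not tested. Signal over background could not be measured from the deposited values, which limits what the dim Flt3 probe set can show.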
